A study of Homo sapiens with 4 samples.

Results

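When dihydroberberine and sunitinib were given together, the RNA level of most genes in A549 cells lay near the sum of the 2 single-drug differences, and a minority lay well above or below that sum. Most of the genes kept (7962, or 81%) differed from untreated cells by less than 1.5-fold with each drug alone. For them a value near the sum says little about whether drug effects add up. The quantity described for each gene is its deviation from the sum on the log2 scale: the signal with both drugs, minus the signal with dihydroberberine, minus the signal with sunitinib, plus the signal in untreated cells. A deviation of 0 means that the log2 differences of the single drugs added up, and a deviation of 1 means that the combination lay 2-fold above the additive value. For every gene the brightest probe set, by its mean over the arrays, was taken, and a gene was kept when all 4 arrays lay at or above a floor of 6.75, the median of all gene probe set values. This left 9831 of 18132 genes. A deviation of at least 2-fold was found above the sum in 292 genes (2.97% of the 9831) and below it in 23 genes (0.234%).

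A549 is an established line from a human lung adenocarcinoma, with epithelial character. It was profiled at 48 h on 4 arrays, 1 for each condition: no drug, 25 μmol/L dihydroberberine alone, 2 μmol/L sunitinib alone, and both drugs together at those doses. The labels name no genetic change of the line. With 1 array per condition there was no replicate and no test, so every difference below is a difference between single arrays, and the array and the condition it carries cannot be told apart. Only technical spread was open to measurement. The deviations of several probe sets for the same gene had a median SD of 0.15 over the 5563 genes with 2 or more probe sets. Among spike-in controls, 24 poly-A spike probe sets had deviations from -0.35 to 0.47 and 18 hybridization spike probe sets from -0.24 to 0.19.

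Dihydroberberine is the hydrogenated relative of berberine, an isoquinoline alkaloid known to inhibit mitochondrial complex I and to activate the energy sensor AMPK. Sunitinib blocks the kinase activity of VEGF, PDGF and KIT receptors and, at higher doses, of many other kinases. Cells that lack amino acids or carry a stress in mitochondria or endoplasmic reticulum phosphorylate the initiation factor eIF2, which favours translation of the transcription factor ATF4 and raises the RNA of its targets. Growth factor signalling through the MAP kinase cascade induces immediate early genes, among them FOSL1, JUN and the feedback phosphatases.

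The arrays had median signals from 6.73 to 6.76 and pairwise correlations from 0.986 to 0.994 over the gene probe sets. Of 12 markers of the line, 9 lay above the floor on all 4 arrays, among them keratins, AKR1B10 and NQO1, while EPCAM, CDH1 and NKX2-1 did not. Of 20 markers of other cell types, 7 did: CD68, HBB, VWF, ACTA2, DES, MYH11 and GFAP, with untreated signals from 7.04 for MYH11 to 8.90 for ACTA2. CD14, the monocyte marker, had 8.82 untreated, 6.75 with dihydroberberine, 6.27 with sunitinib and 5.76 with both, and PTPRC, the leukocyte antigen CD45, did not exceed 3.92 on any array. The dihydroberberine array differed from the untreated one in several control probe sets. The 18S ribosomal RNA controls were lower on it by a median of 0.60 and had deviations from 0.61 to 0.69, the Alu repeat control was lower by 0.41 with a deviation of 0.41, and 28S controls had deviations from -1.12 to -0.22. Background probes rich in G and C had a median of 6.703 in untreated cells, 7.15 with dihydroberberine, 6.99 with sunitinib and 6.95 with both drugs, and deviations from -0.58 to -0.18. Controls for GAPDH had deviations from -0.04 to 0.02, and the 3′ minus 5′ signal of actin was 0.91, 0.63, 0.85 and 0.82 in the same order. The part of these control values in the gene deviations was not tested.

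Over all 9831 genes the deviation had a median of 0.07, with 5% of genes below -0.48 and 5% above 0.85. In 8410 genes (85.5%) it was smaller than 1.5-fold in either direction, and in 1106 it lay between 1.5-fold and 2-fold. At sizes of 1.5-fold and 3-fold, 1153 (11.7%) and 35 (0.356%) genes lay above the sum and 268 (2.73%) and 2 (0.0203%) below it. The distribution leaned upward: the deviation was above 0 in 59% of genes and reached 2.76 at the top and -1.77 at the bottom. Quantile normalization of the arrays moved the median by -0.12, to -0.04, and left 190 genes above and 33 below, all 190 being among the 292 and 23 of the 33 being the original ones. The plot of all deviations shows the longer upper tail.

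**Figure D1:**
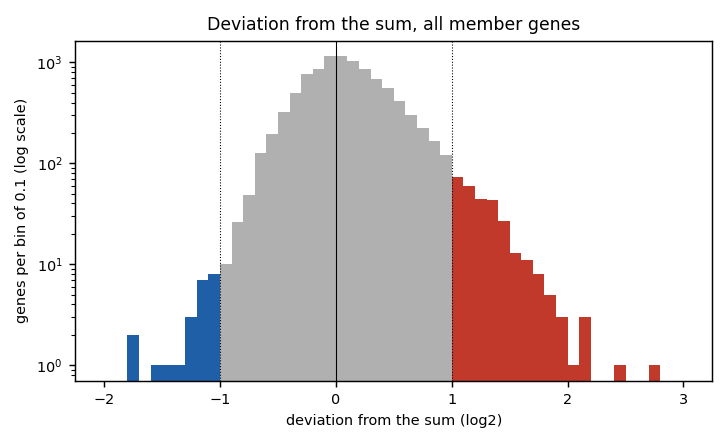
Number of genes per bin of 0.1 (log scale, y) against the deviation from the sum (log2, x) for the 9831 genes. Red bins hold the 292 genes at least 2-fold above the sum and blue bins the 23 genes at least 2-fold below it, and the dotted lines mark 2-fold.

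Most genes above the sum were lower with dihydroberberine alone and near the untreated level when sunitinib was also present. Their median differences from untreated cells were -1.11 with dihydroberberine, -0.20 with sunitinib and -0.11 with both, against -0.05, -0.05 and -0.03 over all genes. At a size of 1.5-fold, 234 of the 292 (80.1%) were lower with dihydroberberine and not with sunitinib, against 1064 of all 9831 genes (10.8%). Another 38 were lower with each drug (1.37% of all genes had this form), 8 were lower with sunitinib only (1.96%), and 12 differed by less than 1.5-fold with either drug (81%). The array that stood apart from the other 3 was the dihydroberberine array, on its low side, in 245 of the 292 genes (83.9%), against 20.3% of all genes. Since the dihydroberberine value is subtracted in the deviation, a gene read low on that array has a higher deviation by construction.

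Genes below the sum had the opposite form. Their median differences from untreated cells were 1.24 with dihydroberberine, 0.60 with sunitinib and 0.54 with both. The signal was at least 1.5-fold higher with each of the drugs in 10 of the 23 (against 43 of all genes, 0.437%), with dihydroberberine only in 9 (3.57% of all genes) and with sunitinib only in 2 (0.6%), and 2 were higher with dihydroberberine and lower with sunitinib (0.214%). Over all 43 genes that were higher with each drug the median deviation was -0.77, and over the 135 that were lower with each drug it was 0.77. In both sets the median gene with the pair fell short of the sum. Both single-drug differences that chose these genes use the untreated value, which is also added in the deviation. A gene read low or high on the untreated array therefore tends to such a shortfall by construction. The dihydroberberine array stood apart, on its high side, in 11 of the 23 genes (47.8%), against 14.6% of all genes. Since its value is subtracted in the deviation, a gene read high on that array has a lower deviation by construction. The untreated array was the one standing apart, on its low side, in 9 of the 23 genes (39.1%), against 12.1% of all genes. Since the untreated value is added in the deviation and shared by both single-drug differences, a gene read low on that array has a lower deviation by construction.

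**Figure D2:**
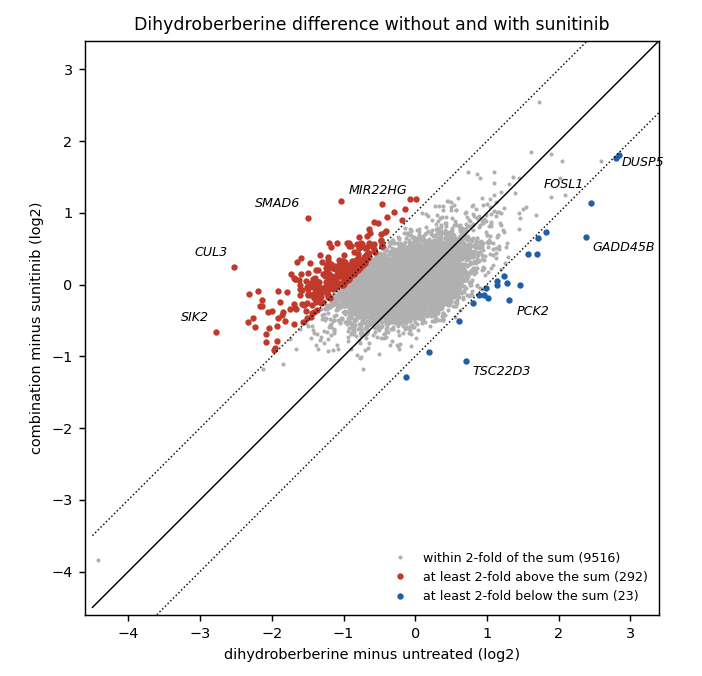
Each point is 1 of 9831 genes, placed by its dihydroberberine difference without sunitinib (x, dihydroberberine minus untreated) and with sunitinib (y, combination minus sunitinib), both log2. Genes on the solid line are additive, and the dotted lines mark 2-fold. The 292 red genes lie mostly to the left of 0 on the x axis and near 0 on the y axis, and the 23 blue genes lie mostly to the right.

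CUL3, the scaffold of a family of cullin-RING ubiquitin ligases that also holds KEAP1, lay farthest above the sum. Its signal was 11.20 in untreated cells, 8.68 with dihydroberberine, 11.07 with sunitinib and 11.31 with both, so the dihydroberberine array alone was low and the deviation was 2.76, or 6.79-fold above the additive value. SMAD6, an inhibitor of BMP receptor signalling, had 8.75, 7.25, 8.74 and 9.66 on the same arrays and a deviation of 2.42. That value rests on 1 probe set, because the other SMAD6 probe set above the floor had -0.08. SETD1B, a histone H3 lysine methyltransferase, had 9.51, 7.19, 9.54 and 9.42 and a deviation of 2.20, again with only the dihydroberberine array low.

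MIR22HG, the long non-coding host transcript of the microRNA miR-22, had 7.82 untreated, 6.79 with dihydroberberine, 7.65 with sunitinib and 8.82 with both. It was thus lowest with dihydroberberine alone and highest with the combination, a deviation of 2.19. SIK2, a salt-inducible kinase of the AMPK family that acts on CREB co-activators, had 10.98, 8.19, 9.77 and 9.11. Here each drug alone was lower than untreated cells and the combination lay between the single drugs, with a deviation of 2.12 for this probe set and 0.32 for its other one. HIRA, a chaperone that deposits the histone variant H3.3, had 9.91, 7.72, 9.29 and 9.20 and a deviation of 2.10, with 0.42 for its other probe set.

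MAT2A makes the methyl donor S-adenosylmethionine. Its values were 12.77 untreated, 10.64 with dihydroberberine, 13.00 with sunitinib and 12.78 with both, a deviation of 1.92, and its 5 probe sets ran from 0.98 to 1.92. ZFHX3, a large homeodomain factor, had 9.18, 7.58, 8.95 and 9.32, and its probe sets gave 1.76 and 1.97. USP7, the deubiquitinase that stabilizes MDM2, had 10.71, 8.97, 10.72 and 10.86, with deviations from 0.60 to 1.88 over 4 probe sets. In all 3 genes the dihydroberberine array was the low one and the other arrays lay close together.

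The next genes in this order were CCNF (1.87), an F-box cyclin, HDAC4 (1.83), a class II histone deacetylase, UNKL (1.81), a RING finger protein, the homeobox gene DLX2 (1.78), FAM168B (1.78) and TAF4 (1.76), a subunit of the general factor TFIID. The other UNKL probe set had 0.46, and the lowest of 5 for FAM168B had 0.32. The plot of the 15 genes farthest on each side shows their 4 arrays beside the additive value.

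**Figure D3:**
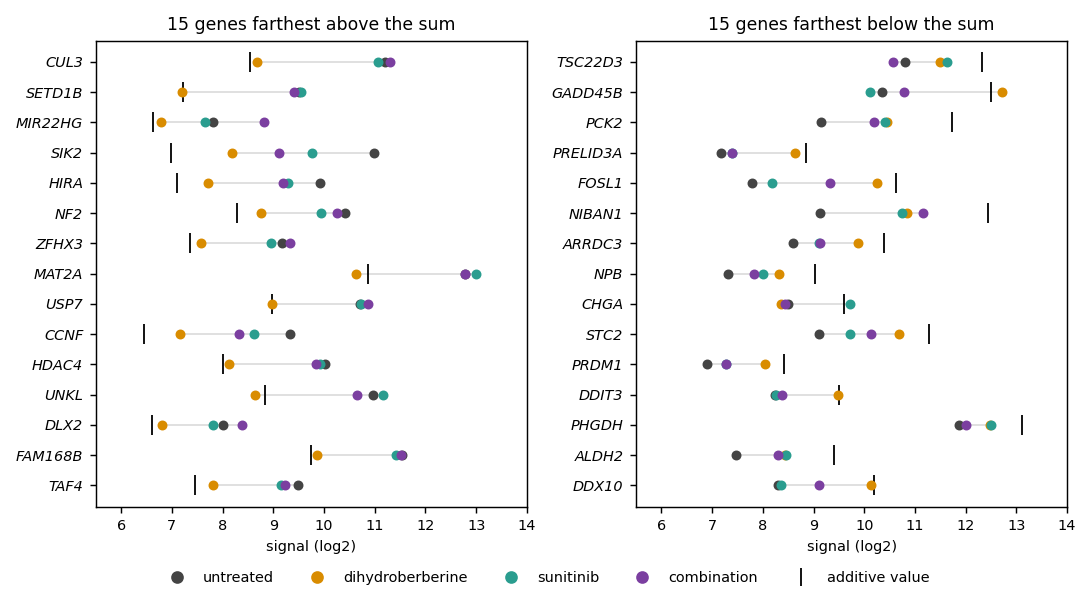
Log2 signal (x) of the 15 genes farthest above the sum (left) and farthest below it (right) whose probe sets all had 1 sign, with 1 dot per array and a black tick at the additive value. On the left the combination dots lie far to the right of the ticks, as for CUL3 at 11.31, and the dihydroberberine dots lie near them. On the right the combination dots lie to the left of the ticks.

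The 292 genes were sorted by hand into roles after their values were seen. The same roles were not counted over all 9831 genes, so the shares describe the make-up of the 292 only: 48 genes (16.4%) were chromatin proteins and transcription co-regulators, 36 DNA-binding transcription factors, 35 kinases, phosphatases and second messenger enzymes, and 30 acted on RNA. A further 23 served membrane transport and trafficking, 22 were ubiquitin ligases, adaptors and deubiquitinases, 20 were receptors, ligands or adhesion proteins and 20 polarity, cytoskeleton or scaffold proteins. Metabolic enzymes made up 16, glycan and proteoglycan synthesis 9, cell cycle genes 3 and long non-coding RNAs 3, and 27 were not classed.

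For every list below, the shares of all genes to compare are 2.97% past 2-fold above the sum, 0.234% below it and 59% above 0. The median of all genes, 0.07, became -0.04 under quantile and -0.0020 under loess scaling. Among chromatin genes, the list of remodelling and acetylation factors had 6 of 48 measured members above the sum (12.5%) and 0 below, with a median deviation of 0.38 and 37 members above 0 (77.1%). That median became 0.25 under quantile and 0.31 under loess scaling. The 6 were HDAC4, the acetyltransferase CREBBP, the SWI/SNF subunits ARID1A and ARID1B, the bromodomain protein BRD3 and the remodeller EP400. CREBBP had 10.69 untreated, 9.32 with dihydroberberine, 10.21 with sunitinib and 10.41 with both, a deviation of 1.58, although its 4 probe sets ran from 0.03 to 1.58. ARID1A had 10.46, 9.04, 9.92 and 9.89 (1.39, its other probe set 0.38), and ARID1B had 8.34, 6.94, 7.83 and 7.80 (1.37). In each of these 3 genes the dihydroberberine array was lowest and the combination was within 0.20 of sunitinib alone. Of 41 histone lysine methyltransferases and demethylases, SETD1B and KDM2B lay past 2-fold above (4.88%, near the 2.97% of all genes) and 0 below. The median of the 41, 0.29, became 0.13 under quantile and 0.20 under loess scaling. KDM5C (0.95, and 0.02 at the least in its 4 probe sets) and KDM2A (0.94) came next.

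The ubiquitin list had 3 of 40 members above (7.5%, namely CUL3, UNKL and the CUL3 adaptor KCTD10 at 1.14), 0 below, and 36 members above 0 (90%, against 59% of all genes), with a median of 0.33. That median became 0.15 under quantile and 0.22 under loess scaling. UBR4, a very large ligase of the N-degron pathway, went the other way: it had 10.12, 11.37, 10.71 and 11.01 and a deviation of -0.95. VHL, which targets the hypoxia factors and was picked after its values were seen, had 9.39, 8.11, 9.28 and 9.23 (1.23). MDM2, the ligase of p53, had 8.05, 7.42, 7.91 and 8.63 (1.35). MDM2 was the only one of 21 measured p53 targets past 2-fold (4.76%) with 14 above 0 (66.7%), shares near the 2.97% and 59% of all genes, and BBC3 (0.80), which promotes apoptosis, and ZMAT3 (0.80) followed.

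RNA-binding proteins contributed in several steps of RNA metabolism. Among splicing factors 5 of 51 lay above (9.80%, against 2.97% of all genes) and 0 below, with a median of 0.26: TRA2A (1.80), SRSF1 (1.25), LUC7L3 (1.10), HNRNPH3 (1.08) and SRSF6 (1.05). The median of the 51 became 0.09 under quantile and 0.14 under loess scaling. SRSF1, an SR protein, had 12.19 untreated, 10.68 with dihydroberberine, 12.31 with sunitinib and 12.05 with both, and all 6 of its probe sets were past 2-fold, from 1.04 to 1.39. In RNA decay 4 of 33 lay above (12.1%), namely the deadenylase CNOT6 (1.34), the AU-element binding proteins ZFP36L2 (1.24) and ZFP36L1 (1.19), and the decapping enzyme DCP2 (1.13). The median of the 33 was 0.19, and it became 0.07 under quantile and 0.07 under loess scaling. Of 9 genes of microRNA processing and function, DGCR8 (1.43), the partner of DROSHA, and TNRC6A (1.002), a GW182 protein, lay above. DGCR8 had 8.04, 6.76, 8.07 and 8.22, so its dihydroberberine value sat just above the floor.

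Signalling genes were followed in lists of energy sensing kinases and of receptor tyrosine kinases. SIK2 and RPTOR, the mTORC1 scaffold (8.55, 7.32, 8.19 and 8.11, deviation 1.15, its other probe set 0.17), were the 2 of 25 energy sensing genes past 2-fold (8%, against 2.97% of all genes). Of the 25, 21 (84%) were above 0. The median of the 25, 0.32, became 0.19 under quantile and 0.28 under loess scaling. IGF1R, the receptor for insulin-like growth factors, was the 1 of 11 receptor kinases past 2-fold. Of these 11, 8 (72.7%) were above 0, against 59% of all genes, and their median of 0.39 was 0.098 with the mean of a gene's probe sets. It had 10.48, 9.83, 10.17 and 10.75, with deviations from 0.60 to 1.26 over its 4 probe sets, so that it was highest with both drugs. EGFR (0.57), FGFR1 (0.50) and the collagen receptor DDR1 (0.45) lay above the sum by less than 2-fold, and DDR1 had a probe set at -0.24.

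A further 5 pathways were listed after the deviations had been seen, because several of their members stood among the 292, so their counts are no independent evidence. Hippo core kinases and polarity adaptors had 8 of 28 members above the sum, insulin and IGF signalling 5 of 18, Wnt receptors and nuclear partners 6 of 23, Hedgehog signalling 3 of 7 and glycosaminoglycan synthesis 6 of 28, with 0 below in each. Their median deviations were 0.69, 0.55, 0.49, 0.97 and 0.43. Each of these medians stayed above 0 under quantile, median and loess scaling of the same arrays, which is no independent evidence either.

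In the Hippo group, NF2, the merlin tumour suppressor upstream of the LATS kinases, had 10.41, 8.76, 9.94 and 10.25 and a deviation of 1.97, although its 4 probe sets began at 0.12. The cell polarity scaffolds DLG1 (8.55, 7.33, 8.65 and 9.0, deviation 1.56) and SCRIB (10.84, 9.61, 10.27 and 10.48, deviation 1.44) had the low dihydroberberine array in common. The LATS cofactor MOB1B (1.24), WWC3 (1.53), LIMD1 (1.33) and DLG5 (1.41, its other probe set at -0.02) completed it with WWTR1, the transcriptional co-activator TAZ, which had 10.46, 9.22, 10.12 and 10.35 (1.47), with a lowest probe set of 0.0046 among 3. The list of YAP and TAZ targets, which also holds WWTR1, had 11 of 14 members above 0 and a median of 0.52. In it F3, the coagulation initiator tissue factor (8.76, 7.44, 8.25 and 7.99, deviation 1.06), and WWTR1 lay above, and CCN1 lay below. CCN1, a secreted matricellular protein, had 10.76 untreated, 13.60 with dihydroberberine, 9.81 with sunitinib and 11.62 with both (-1.04).

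Insulin and IGF signalling contributed, besides IGF1R, the receptor substrates IRS1 and IRS2, the kinase PDPK1 and the exchange factor SOS2. IRS1 had 10.08 untreated, 9.41 with dihydroberberine, 9.39 with sunitinib and 10.07 with both, so each drug alone was lower and the pair equalled untreated cells (1.35). IRS2 had 11.33, 10.43, 10.95 and 11.23 (1.17), and PDPK1, which phosphorylates AKT, had 9.99, 8.64, 9.72 and 9.69 (1.32). Wnt receptors were FZD5 (1.83), FZD7 (1.20) and FZD1 (1.04), joined by the R-spondin receptor LGR4 (1.33), the co-activator BCL9L (1.07) and the kinase GSK3B. GSK3B, which marks beta-catenin for destruction, had 9.65, 8.61, 10.04 and 10.26 (1.26), higher with sunitinib and with both. The Hedgehog members were the receptor PTCH1 (8.60, 7.27, 8.0 and 8.42, deviation 1.75, its other probe set 1.86) and the factors GLI3 (1.29) and GLI2 (1.01). In the glycosaminoglycan group XYLT1, which starts the chains, had 10.37, 9.26, 9.31 and 9.57 (1.38), low with each drug, and CHSY1, a chondroitin synthase, had 9.71, 8.67, 9.80 and 10.02 (1.27).

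Some genes above the sum were high with the combination itself. Since the combination value is added in the deviation, a gene read high on that array has a higher deviation by construction. The combination was the highest of the 4 arrays in 110 of the 292 genes (37.7%), against 25.4% of all genes, and it was the array standing apart, on its high side, in 14 (4.79%), a smaller share than the 11.8% of all genes. SULF2, an extracellular enzyme that removes sulphate from heparan sulphate, was one of these: it had 7.12 untreated, 7.14 with dihydroberberine, 7.29 with sunitinib and 8.48 with both, a deviation of 1.19, with 0.28 for its other probe set. EPAS1, the hypoxia factor HIF-2α, had 10.04, 9.96, 9.66 and 10.86 (1.27), and the AP-1 member FOSL2 had 8.87, 8.58, 8.47 and 9.49 (1.31). The homeobox gene SIX4 had 7.69, 7.18, 7.89 and 8.74 (1.37). With either drug alone these 4 genes differed from untreated cells by less than 1.5-fold, and they were named here after their values were seen, apart from FOSL2. The rest of the 12 such genes were DENND5B, GOPC, HEG1, LHFPL2, MAP3K21, SERTAD4, SOS2 and ZBTB44.

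In 9 of the 9831 genes the signal was at least 1.5-fold lower with dihydroberberine than in untreated cells and at least 1.5-fold higher with both drugs than with sunitinib alone. They were AGAP1, IRS1, MDM2, MIR22HG, PRKCA, SMAD6, UBL3, WWC3 and ZBTB18, and at a size of 2-fold MIR22HG alone qualified. PRKCA, protein kinase C alpha, had 10.63, 9.85, 10.54 and 11.20 (1.44). ZBTB18, a zinc finger repressor, had 8.30, 7.66, 8.35 and 9.13 (1.41). In both the sunitinib signal lay within 0.15 of untreated cells, and the combination was the highest. The choice of these 9 genes uses differences that make up the deviation, so their deviations are high by construction.

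Below the sum, the first group was the amino acid and stress response genes controlled by ATF4, with 5 of 33 measured members at least 2-fold below (15.2%, against 0.234% of all genes), 0 above, and 26 below 0. The median over the list was 0.31 higher than untreated with dihydroberberine, 0.36 with sunitinib and 0.36 with both, where the additive median was 0.70, and the median deviation was -0.38. With plain-named probe sets only, 7 members were left and their median was 0.00033. PCK2, the mitochondrial form of PEP carboxykinase, had 9.14 untreated, 10.45 with dihydroberberine, 10.41 with sunitinib and 10.19 with both, so either drug alone was as high as the pair (-1.53, and -1.33 for its other probe set). PHGDH, the first enzyme of serine synthesis, had 11.88, 12.49, 12.50 and 11.996 (-1.12), which put the combination back near untreated cells. WARS1, the tryptophanyl-tRNA synthetase, had 11.96, 12.94, 13.13 and 13.08, and its 3 probe sets ran from -1.03 to -0.96.

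STC2, a secreted glycoprotein induced by endoplasmic reticulum stress, had 9.11, 10.68, 9.71 and 10.13 (-1.15, and -0.34 at the least in its 3 probe sets). DDIT3, the pro-apoptotic factor CHOP, had 8.24, 9.48, 8.26 and 8.38, so only the dihydroberberine array was high, and its probe sets gave -1.12 and -1.36. ASNS, asparagine synthetase, had 12.84, 13.70, 13.74 and 13.73 (-0.87), the same plateau as PCK2 at a size under 2-fold. GDF15, a stress-induced cytokine, had 10.49, 12.58, 10.87 and 12.12 (-0.83). ATF4 RNA itself had 14.05, 14.20, 14.18 and 14.16 (-0.16), and CHAC1, a glutathione-degrading ATF4 target, lay above the sum at 10.01, 9.23, 9.98 and 9.68 (0.48). The cystine and amino acid carriers SLC7A11 (0.53) and SLC7A5 (0.69) also lay above, although the other SLC7A5 probe set had -0.25.

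The MAP kinase and immediate early list split in both directions, with 4 of 29 members above (13.8%), 3 below (10.3%) and a median of -0.16, which was 0.02 with the median of all probe sets of a gene. FOSL1, an AP-1 subunit, had 7.79 untreated, 10.24 with dihydroberberine, 8.17 with sunitinib and 9.31 with both, and its 4 probe sets ran from -1.31 to -0.89. DUSP5, a nuclear phosphatase of ERK, had 9.66, 12.46, 9.02 and 10.78 (-1.04). JUN had 7.77, 9.47, 7.64 and 8.29 (-1.05), while its other probe set had 0.04. In all 3 the dihydroberberine array was highest and the combination stood between it and untreated cells. The 4 members above were the early response gene IER5 (9.67, 8.67, 9.68 and 10.10, deviation 1.41), FOSL2, and the Ras-pathway inhibitors SPRED1 (9.52, 8.74, 9.33 and 9.84, deviation 1.30) and SPRED2 (1.12). The early growth response factor EGR1 was no member, since its untreated and sunitinib values lay under the floor: it had 6.68, 11.62, 6.23 and 8.20, and with the low values raised to the floor its deviation was -3.41.

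Of the other genes below the sum, TSC22D3, the glucocorticoid-induced leucine zipper GILZ, was the farthest. It had 10.80 untreated, 11.50 with dihydroberberine, 11.62 with sunitinib and 10.56 with both, so that each drug alone was higher and the combination was lower than untreated cells (-1.77, 3.41-fold below, and -1.11 at the least in its 3 probe sets). GADD45B, a stress sensor that acts on MAP3K4, had 10.35, 12.72, 10.11 and 10.78, and its 3 probe sets ran from -2.09 to -1.71. PRELID3A, a mitochondrial lipid carrier, had 7.17, 8.63, 7.40 and 7.39 (-1.46), and the germinal centre repressor PRDM1 had 6.90, 8.05, 7.28 and 7.27 (-1.15, its other probe set -0.29). In these 3 genes the dihydroberberine array was the high one.

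NIBAN1, a stress-induced regulator of translation, had 9.14, 10.84, 10.74 and 11.16 (-1.28, and -0.42 at the least in its 3 probe sets), another gene in which either drug alone nearly reached the level of the pair. The alpha-arrestin ARRDC3 had 8.59, 9.87, 9.11 and 9.13 (-1.25, and -0.62 at the least in its 3 probe sets). Its list of 8 arrestins and MondoA partners also held MLXIP, the glucose-sensing factor MondoA, at 9.86, 8.07, 9.65 and 9.55, with probe sets at 1.69 and 2.23. NPB, the precursor of neuropeptide B, had 7.31, 8.32, 8.01 and 7.82 (-1.21), and ALDH2, the mitochondrial aldehyde dehydrogenase, had 7.47, 8.43, 8.45 and 8.31 (-1.11). DDX10, an RNA helicase of ribosome assembly, had 8.30, 10.13, 8.36 and 9.10 (-1.09). CHGA, chromogranin A of neuroendocrine granules, and FAM13B were high with sunitinib alone: CHGA had 8.49, 8.36, 9.73 and 8.44 (-1.15), and FAM13B had 7.22, 7.41, 8.67 and 7.73 (-1.13).

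Promoters of genes on both sides were searched for 5 short motifs on both strands, in the 250 bases before to 50 bases after the start given by RefSeq (GRCh38.p14). The cyclic AMP response element TGACGTCA was found in 4 of the 18 genes below the sum that had a promoter (22.2%), in 10 of 238 above (4.20%), in 3.503% of all members with a promoter and in 1.98% of all 27305 promoters. The ATF4 and C/EBP composite element TGATGNAA was found in 0 of the 18 and in 1.26% of the 238, against 1.67% of members, and in 7 of the 30 promoters of the ATF4 list. The AP-1 element TGANTCA was found in 1 of the 18 and in 4.20% of those above (4.32% of members), and the E-box CACGTG in 1 of the 18 and in 12.6% of those above (10.5% of members). The hypoxia core GCGTG, present in 51.6% of members, was in 14 of the 18 and in 52.1% of those above. A match is a description of the letters and not of binding, and the groups are small. The stretches below show the cyclic AMP element in CHGA (chr14:92923066-92923133, plus strand), in DDX10 (chr11:108664967-108665034, plus strand), in CCNL1, a cyclin of splicing kinases with a deviation of -1.09 (chr3:157160196-157160263, minus strand), and in RALGAPA1, a GTPase activator with -1.07 (chr14:35809329-35809396, minus strand), with the composite element of ASNS (chr7:97872439-97872506, minus strand) for comparison. Capitals mark the motif.
CHGA: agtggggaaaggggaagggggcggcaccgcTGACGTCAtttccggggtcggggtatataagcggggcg
DDX10: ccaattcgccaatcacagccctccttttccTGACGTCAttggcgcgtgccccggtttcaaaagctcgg
CCNL1: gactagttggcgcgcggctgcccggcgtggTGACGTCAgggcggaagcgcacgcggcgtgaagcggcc
RALGAPA1: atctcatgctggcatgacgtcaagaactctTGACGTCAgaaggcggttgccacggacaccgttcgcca
ASNS: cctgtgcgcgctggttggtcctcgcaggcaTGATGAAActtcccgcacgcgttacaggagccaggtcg
The motif began 54 bases before the start in CHGA, 72 in DDX10, 86 in CCNL1, 71 in RALGAPA1 and 68 in ASNS, and RALGAPA1 held a second copy, seen in lower case in the stretch, at 87 bases, and DDX10 one outside the stretch, at 239 bases. The 4 genes with the cyclic AMP element were not alike on the arrays: CHGA was high with sunitinib, DDX10 and CCNL1 with dihydroberberine, and RALGAPA1 with either drug.

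Several pathways whose median was lower with each drug lay above the sum, by under 2-fold for nearly every member. Over all genes 59% were above 0. Cholesterol synthesis and uptake had 15 of 19 members above 0 and a median deviation of 0.32, with 0 past 2-fold. INSIG1, the sterol sensor, had 10.65, 8.52, 10.06 and 8.89 (0.95), and the synthesis enzyme FDPS had 12.19, 11.35, 11.85 and 11.77 (0.77). Fatty acid synthesis had 14 of 17 above 0 and a median of 0.34, with the desaturase FADS2 (10.32, 8.36, 9.48 and 8.59, deviation 1.08, and 0.41 at the least in its 3 probe sets) past 2-fold and SCD at 0.86. Cytosolic heat shock genes had 15 of 17 above 0 (median 0.37, none past 2-fold), led by the small chaperone HSPB8 (11.50, 10.21, 11.17 and 10.71, deviation 0.83) and its partner BAG3 (0.82). Endoplasmic reticulum chaperones and degradation factors had 18 of 22 above 0 (median 0.22), with DNAJC3, an inhibitor of the eIF2 kinase PERK, at 1.06. Targets of the antioxidant factor NRF2 had 27 of 28 above 0 with a median of 0.17, 0 past 2-fold, and HMOX1 at 0.89. In hypoxia and glycolysis 26 of 30 members were above 0 (median 0.20), with the aldolase ALDOC at 1.05 (0.24 at the least in its 5 probe sets). Under quantile scaling the medians of these lists, in the order given, became 0.15, 0.17, 0.20, 0.10, 0.11 and 0.17. Under loess scaling they became 0.20, 0.23, 0.25, 0.11, 0.08 and 0.14.

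Proliferation genes were lower with each drug and with the pair, and their median deviations from the sum were small. DNA replication genes had medians of -0.48, -0.22 and -0.57 with dihydroberberine, sunitinib and both, and a median deviation of 0.08, which became -0.06 under quantile and -0.02 under loess scaling. G2/M and mitosis genes had 34 of 45 above 0 (75.6%, against 59% of all genes). Their median deviation of 0.15 became 0.02 under quantile and 0.04 under loess scaling. In this list 1 of 45 lay past 2-fold (2.22%, near the 2.97% of all genes), SPC25, a kinetochore protein at 10.46, 8.79, 9.75 and 9.43 (1.35). Replication-dependent histones went the other way, with 8 of 10 below 0 and a median of -0.18. H4C12 had 8.61, 8.55, 8.36 and 7.50 (-0.79) and H2BC5 had 8.44, 8.45, 8.19 and 7.44 (-0.76), so both were low with the combination alone.

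Inflammatory genes of the NF-kB list divided, with 7 of 17 above 0 and 0 past 2-fold. CXCL8, the neutrophil chemokine, had 12.83 untreated, 14.55 with dihydroberberine, 11.49 with sunitinib and 14.04 with both (0.83), and CXCL1 had 13.75, 13.52, 13.19 and 13.84 (0.88). CXCL3 (-0.77) and CCL20 (-0.73) lay below the sum, and the list's median was -0.32, which became 0.20 over the 12 members above a floor at the 75th percentile. Of 8 aryl hydrocarbon receptor genes, the receptor AHR had 0.95, with 3 probe sets from -0.11 to 0.95, and its target TIPARP, at 9.13, 11.72, 9.54 and 11.26, had -0.87. Several large gene families had medians near 0: 69 cytosolic ribosomal protein genes ran from -0.46 to 0.30 with a median of -0.04, 74 mitochondrial ones had a median of -0.03, and 0 of either lay past 2-fold. Complex I had a median of 0.05 and 1 of 36 past 2-fold (2.78%, near the 2.97% of all genes), NDUFC2 (12.08, 10.58, 11.96 and 11.91, deviation 1.44), which has 1 probe set above the floor. The 178 zinc finger genes of the ZNF family had a median of 0.01, with 4 above (2.25%) and 0 below, a share close to the 2.97% of all genes.

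**Figure D4:**
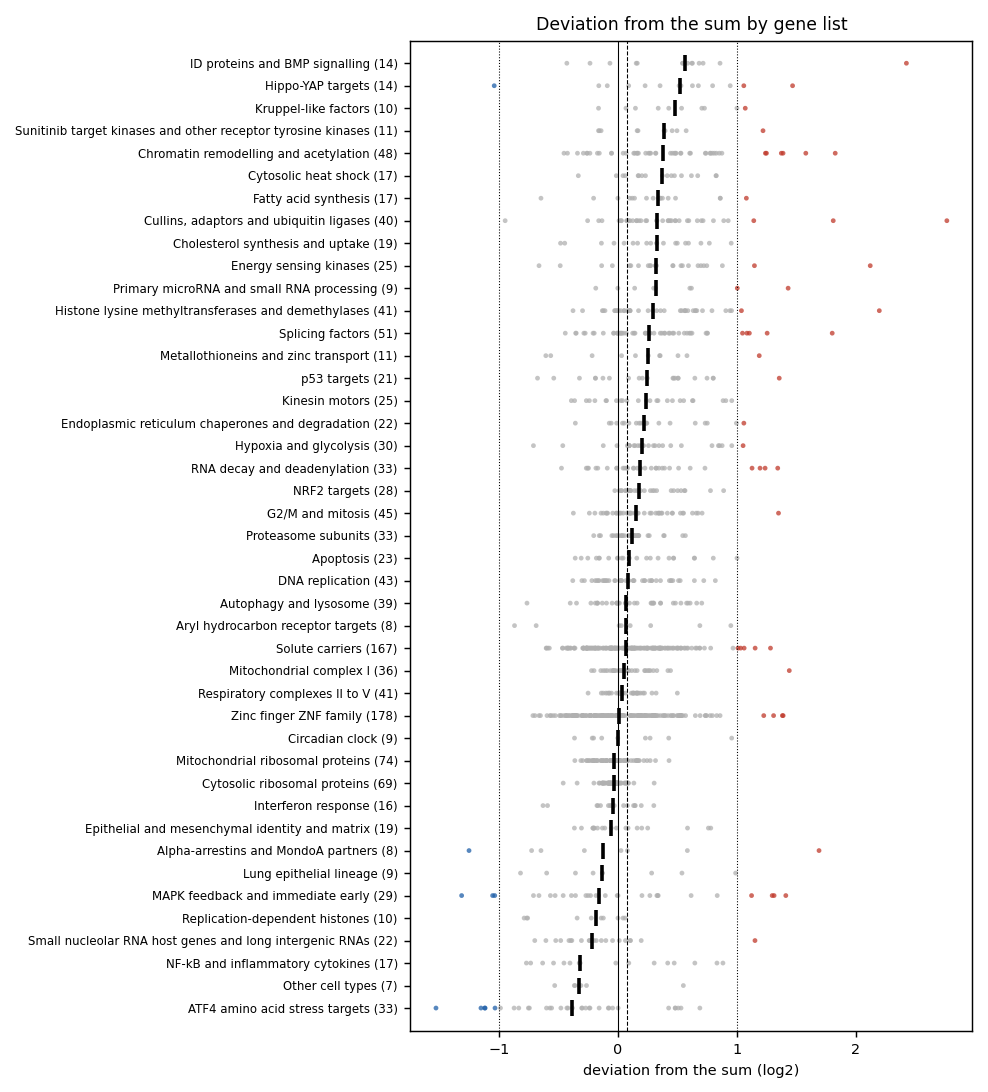
Deviation from the sum (log2, x) of every measured member of 43 gene lists, ordered by the list median (black bar), with the number of members in brackets. Red and blue points are past 2-fold, the solid line is 0, the dashed line is the median of all genes (0.07) and the dotted lines mark 2-fold. ATF4 targets have the lowest median (-0.38), and ribosomal protein genes cluster at 0.

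Probe sets of 1 gene mostly agreed in direction and less often in size. Of the 292 genes above the sum, 172 had 2 or more probe sets above the floor, and in 133 of them (77.3%) every probe set lay above 0. Of the 23 below, 17 had 2 or more, and in 14 (82.4%) every probe set lay below 0. Over all genes with 2 or more probe sets, 3541 of 5563 (63.7%) had 1 sign, many of those genes having deviations near 0. Since the representative probe set chose the genes, the other ones are the check: above the sum, 280 of 322 others (87.0%) had the same sign, 118 (36.6%) were past 2-fold the same way, against 1.96% of the other probe sets over all genes, and 0 were past 2-fold the opposite way. Their median was 0.76 where the representative ones had 1.21. Below the sum, 25 of 28 others (89.3%) had the same sign and 12 (42.9%) were past 2-fold, against 0.249% over all genes, with a median of -0.97 against -1.13. Probe sets of a gene share the 4 RNA samples and often transcripts, so their agreement does not measure error between cultures.

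Every probe set lay past 2-fold the same way in 32 genes above the sum and 5 below. Another 120 genes above and 6 below had 1 probe set above the floor and so no such check, among them CUL3, SETD1B, MIR22HG, HDAC4, PHGDH and CHGA. The clearest disagreements were in FZD5, whose 4 probe sets ran from -0.67 to 1.83, TRA2A, whose 5 ran from -0.75 to 2.14, KDM2B (-0.85 to 1.27) and ING5, a subunit of histone acetyltransferase complexes (-0.66 and 1.14). The spread between probe sets was also wider above the sum, with a median SD of 0.44, than below it (0.24) or over all genes (0.15).

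**Figure D5:**
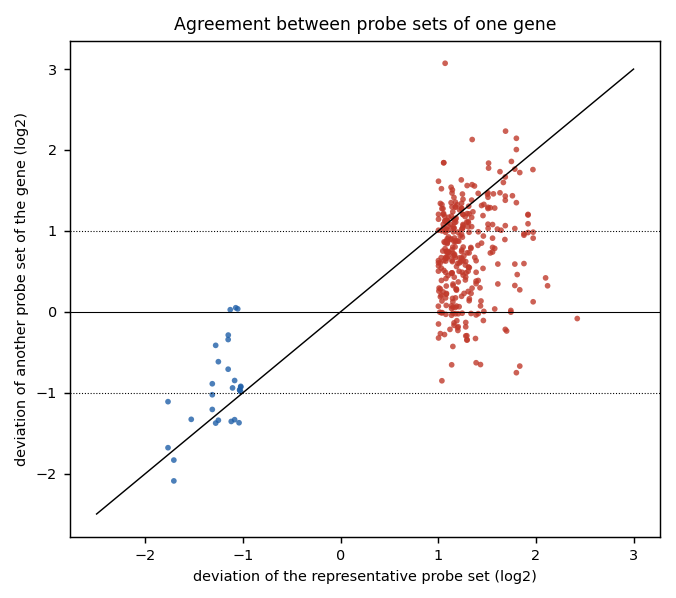
Deviation (log2) of each other probe set above the floor (y) against that of the gene's representative probe set (x), for the 172 genes above the sum (red) and 17 genes below it (blue) with 2 or more. Points on the diagonal agree, and the dotted lines mark 2-fold. Most red points lie under the diagonal but above 0, with a median of 0.76 on the y axis.

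Gene length and promoter composition, which the rule did not use, differed between the groups. The RefSeq gene span had a median of 59.5 kb above the sum, 17.0 kb below it and 28.9 kb over all members, and promoters were 71.2%, 63.7% and 65.7% G and C. Mean signal was used to choose the probe set and, through the floor, the genes. With the genes cut into 4 equal bins by it, the share above the sum was 2.16% in the dimmest bin, 4.43% and 3.91% in the next and 1.38% in the brightest. Genes represented by a probe set with a plain name or with the suffix s had 4.57% and 4.52% above the sum, and those with the suffix a or x had 2.12% and 1.39%. The part of span, base composition, signal or probe type in the deviations was not tested.

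Just inside 2-fold lay RGMB (1.0006) and DCAF16 (1.0012) above and CSF2RA (-1.02) and WARS1 (-1.03) below, and just outside lay XIAP (0.9997), LRRC57 (0.9995), FN3K (-0.9982) and SARS1 (-0.99). At the floor, CRYBB2 (-0.11) and NPTXR (-0.69) were just inside, and DLEU2 (1.10) and USP54 (0.44) just outside. Of the genes left out, 7174 lay under the floor on all 4 arrays and 1127 were above it on some arrays only. With values under the floor raised to it, 23 of these 1127 lay at least 2-fold above the sum, with the antiviral RNA-binding protein ZC3HAV1 at 2.61 as the largest, and 3 lay below, which were EGR1, MMP1 (-1.82) and NUPR1 (-1.68).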

How the data were processed

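RNA of A549 cells was measured on 4 arrays, 1 per condition, grouped by their titles. The deposited table holds log2 probe set summaries that the authors made with Affymetrix Expression Console, as the submitters' processing notes name it. For its version, its summarization and any scaling between arrays, the sources used here state nothing. The log2 scale was inferred from the values, which run from 3.01 to 15.4. The design text names an Agilent array and the label field Cy3, but the labels' protocols describe biotin labelling for a GeneChip, and the probe set names and controls are those of an Affymetrix array.

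The table held 49395 probe sets, 102 of them controls. The platform annotation gave 1 symbol for 44988, several for 1832 and none for 2473. Of 18132 genes, 18111 matched RefSeq (GRCh38.p14), which was used for names, gene spans and promoters. Single symbols were needed for a gene to be counted. No test was run, because 1 array per condition leaves no error between samples, so precision is limited by the count of arrays. Deviations were counted at 2-fold, and the arithmetic was tested on simulated data. Signal values of different genes are not compared. Alternatives were other probe set choices, other floors, quantile, median and cyclic loess scaling (limma 3.58.1, R 4.3.3), additivity on the linear scale, and sizes of 1.5-fold and 3-fold.

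The members and lists were chosen with earlier results of these data known. The 43 lists and the rule for named genes were set down together with the alternatives, and 5 more lists and the roles were added after the deviations were seen. Named genes are the 15 highest and 15 lowest past 2-fold with all probe sets of 1 sign, up to 4 of each list with the largest deviations, the 5 highest and 5 lowest with the combination outside the range of the other arrays, the 4 largest disagreements between probe sets, and 2 on either side of the floor and of 2-fold. Other names were chosen after their values were seen. Calculations used Python 3.11.15 with pandas 2.3.3 and numpy 2.4.6.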

Additional observations from a re-analysis of the deposited data

Results flagged for a closer look

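Among control probe sets, one for the middle of 28S ribosomal RNA lay 2-fold below the sum, at -1.12. Probe sets outside the gene analysis also deviated: of 998 above the floor with no gene symbol, 24 lay at least 2-fold above the sum (2.40%) and 1 below, and of 806 with several symbols, 14 lay above (1.74%) and 7 below. Probe sets with 1 symbol had 2.43% above.

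In some genes the difference made by 1 drug had opposite signs without and with the other drug, by at least 1.5-fold each way, and with 1 array per condition this difference was not tested. The deviation is made up of these same differences, so genes chosen this way have a large deviation by construction. Dihydroberberine went with a lower signal alone and a higher one beside sunitinib in AGAP1 (deviation 1.51), IRS1 (1.35), MDM2 (1.35), MIR22HG (2.19), PRKCA (1.44), SMAD6 (2.42), UBL3 (1.68), WWC3 (1.53) and ZBTB18 (1.41). TSC22D3 (-1.77) had the reverse form for both drugs.

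Sunitinib went with a lower signal alone and a higher one beside dihydroberberine in 17 of the 9831 genes. They include IRS1, the Hedgehog receptor PTCH1 (1.75), the kinases SIK2 (2.12) and PRKX (1.76), the lipase PLCG1 (1.35), the histone chaperone HIRA (2.10) and the mitotic genes CCNF (1.87) and SPC25 (1.35). The others were MIDEAS (1.75), RHOBTB1 (1.61), NHSL3 (1.47), TECPR1 (1.47), UBE4B (1.46), NT5DC2 (1.39), PNMA1 (1.33), KCNK1 (1.24) and PLAGL1 (1.24). In PTCH1 the signal was 8.60 untreated, 7.27 with dihydroberberine, 8.0 with sunitinib and 8.42 with both. No gene reached 2-fold each way for sunitinib, and for dihydroberberine MIR22HG did. A gene read high on the untreated array or low on the dihydroberberine array tends to the form of these 17 genes by construction.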

How the results depend on the processing

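No paired analysis was possible because each condition held 1 array, and leaving out an array leaves no deviation. The 292 genes above the sum became 90 with the mean and 123 with the median of a gene's probe sets, 104 with plain-named probe sets only, 96 with a floor at the 75th percentile, 190 after quantile normalization, 530 with additivity on the linear scale, 1153 at 1.5-fold and 35 at 3-fold. The 23 below became 7 with plain-named probe sets, 10 with the higher floor, 17 with additivity on the linear scale and 70 with no floor. They became 268 at 1.5-fold and 2 at 3-fold. Of the original 23, 5 were among the 7, 10 among the 10 and 11 among the 17. In alternatives added after seeing the data, 118 above and 13 below were past 2-fold in the second brightest probe set, and 32 and 5 in every probe set. Of the original 292, 80 were among the 90, 93 among the 123, 96 among the 96 and 256 among the 530. The median deviation of all genes, 0.07, became -0.041 with no floor, -0.042 after quantile normalization and -0.0020 after cyclic loess. Sign agreement, that is agreement between probe sets, was 77.8% over both directions, 95.2% with the higher floor and 53.5% with no floor. SMAD6 became -0.036 with the median of its probe sets and -0.084 with plain-named ones, and ZNF395 -0.33 with plain-named ones. The MAP kinase list's median became 0.022 and 0.73 in the same 2 settings, the ATF4 list's 0.00033 with plain-named probe sets, and the NF-kB list's 0.20 with the higher floor. The linear scale and the choice of probe set change the quantity itself, and the cause of the other shifts was not tested. Of 78 named genes past 2-fold, 61 stayed past it after quantile normalization and 67 after loess, and 0 changed sign there. With additivity on the linear scale 63 of the 78 stayed past it. With the mean of a gene's probe sets, 30 of the 59 that were still above the floor stayed past it, and with the median 31 of 58. Signals near the floor lie close to the G and C rich background probes, so low values may be background.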

Other observations

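Other gene groups lay above, near or below the sum. Kruppel-like factors had 9 of 10 members above 0 with a median of 0.48, led by KLF13 (9.66 untreated, 8.80 with dihydroberberine, 9.81 with sunitinib and 10.02 with both, deviation 1.07), and KLF3 came next at 0.999, with 0.01 for its other probe set. ID proteins and BMP signalling genes had a median of 0.56 over 14 members, with the signal transducer SMAD3 at 0.86 and the receptor ACVR1 at 0.68 after SMAD6. Of 167 solute carriers 5 lay above the sum (2.99%) and 0 below, close to the 2.97% of all genes. SLC12A2, the sodium, potassium and chloride cotransporter, had 10.70, 9.54, 9.65 and 9.64 (1.15), so each drug alone was as low as the pair.

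Metallothioneins and zinc transport genes had 8 of 11 members above 0 and a median of 0.25. MTF1, the zinc-sensing factor, had 7.99, 6.94, 8.18 and 8.31 (1.19), with 0.07 at the least in its 4 probe sets. Of the 4 metallothioneins measured, MT1G (-0.61), MT1X (-0.57) and MT1F (-0.22) lay below the sum and MT2A was at 0.03. Interferon response genes had 9 of 16 members below 0, with IFI27 at -0.63 and IFI44L at -0.59 and a median of -0.04. Small nucleolar RNA host genes and long intergenic RNAs had 16 of 22 below 0 and a median of -0.22, and the cyclic AMP responsive LINC00473, at 9.45, 7.52, 9.45 and 8.67, was the 1 above 2-fold (1.15).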
